A study of Mus musculus with 4 samples.

Results

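Chromatin accessibility was examined in and within 50 kb of 10 genes of transforming growth factor beta (TGF-beta) signalling: the ligands Tgfb1, Tgfb2 and Tgfb3, the latency protein Ltbp1, the receptors Tgfbr1 and Tgfbr2, the signal transducers Smad2 and Smad3, the inhibitor Smad7 and the induced matrix protein Tgfbi. These were 10 of 21887 protein-coding genes of the RefSeq annotation of GRCm38. They were chosen by name, and every ATAC-seq peak that touched a gene or the 50 kb on either side of it was kept, whatever its strength. The windows held 810 of the 455071 peaks in the data. Peaks of different libraries that overlapped by at least 1 bp were merged, which gave 293 of 172311 sites.

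The study asked how the chromatin of mouse chondrocytes changes when the cells lose their phenotype during serial passaging. Knee chondrocytes of C57BL/6 mice, taken on postnatal days 0 to 4, were grown in DMEM/F12 medium with 10% fetal bovine serum. P0 cells had been in culture for under 24 h, and P8 cells had gone through 8 passages, with 1 passage at each doubling. ATAC-seq, in which the Tn5 transposase cuts and tags open DNA, was available for 2 P0 and 2 P8 libraries. The labels give no transgene or agent for either group, so passage number, with the time in culture that goes with it, was the named difference between them. The labels did not say whether the 2 libraries of a passage came from separate mice or cultures, so the spread within a passage may be technical. The peak names separated the libraries without giving their replicate numbers. Below, the letters A and B tell the libraries of a passage apart, and values for all 4 are given in the order P0 A, P0 B, P8 A and P8 B.

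TGF-beta is secreted in a latent form, bound to its own propeptide, and the latent TGF-beta binding proteins tether this complex to the extracellular matrix. Once freed, the ligand binds the type II receptor, which recruits and phosphorylates the type I receptor, and the type I receptor phosphorylates Smad2 and Smad3. These enter the nucleus with Smad4 and act on target genes, among them Smad7, which blocks the type I receptor in turn, and Tgfbi, which encodes a collagen-binding matrix protein. In cartilage the pathway is known for promoting matrix synthesis and for restraining chondrocyte hypertrophy.

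The bases just upstream of the starts are shown for 5 of the genes, because their start sites differed in peak strength and in sequence. They come from RefSeq promoters of GRCm38.p6, cover up to 250 bases before the annotated start, and read 5′ to 3′ on the coding strand. Capitals mark, on either strand, the GC box GGGCGG, the CCAAT box CCAAT and the cyclic AMP response element TGACGTCA. The TATA box TATAAA, the AP-1 motif TGANTCA and the E box CACGTG were also searched and occurred in none of these windows.
Tgfb1 (chr7:25686752-25687001, plus strand): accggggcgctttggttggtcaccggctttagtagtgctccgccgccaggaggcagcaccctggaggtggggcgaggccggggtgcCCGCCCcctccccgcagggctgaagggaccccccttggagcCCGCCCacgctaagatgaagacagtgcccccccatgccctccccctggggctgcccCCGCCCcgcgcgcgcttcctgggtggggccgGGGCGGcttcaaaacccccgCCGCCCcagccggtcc
Tgfbr1 (chr4:47352972-47353221, plus strand): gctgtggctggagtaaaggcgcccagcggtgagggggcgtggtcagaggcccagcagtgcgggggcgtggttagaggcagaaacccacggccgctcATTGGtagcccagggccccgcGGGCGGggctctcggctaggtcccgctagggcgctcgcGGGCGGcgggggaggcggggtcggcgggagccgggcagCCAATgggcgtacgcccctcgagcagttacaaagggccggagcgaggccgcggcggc
Tgfbr2 (chr9:116175364-116175613, minus strand): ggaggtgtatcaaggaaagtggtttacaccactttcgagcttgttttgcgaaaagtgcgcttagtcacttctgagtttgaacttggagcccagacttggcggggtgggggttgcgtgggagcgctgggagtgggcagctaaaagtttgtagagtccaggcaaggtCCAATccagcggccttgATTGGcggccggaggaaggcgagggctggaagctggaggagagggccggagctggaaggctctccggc
Tgfbi (chr13:56609336-56609585, plus strand): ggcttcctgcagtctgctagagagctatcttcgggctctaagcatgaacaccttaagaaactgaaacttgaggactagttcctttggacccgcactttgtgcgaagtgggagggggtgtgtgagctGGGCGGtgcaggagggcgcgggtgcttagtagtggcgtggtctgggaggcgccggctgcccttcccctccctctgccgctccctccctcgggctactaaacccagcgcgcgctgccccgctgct
Ltbp1 start 1 (chr17:75005279-75005479, plus strand): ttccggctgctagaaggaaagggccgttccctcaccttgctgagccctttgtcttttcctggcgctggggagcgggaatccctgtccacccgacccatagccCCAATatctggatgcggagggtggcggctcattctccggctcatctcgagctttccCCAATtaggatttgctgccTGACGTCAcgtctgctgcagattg
Ltbp1 start 2 (chr17:75178531-75178780, plus strand): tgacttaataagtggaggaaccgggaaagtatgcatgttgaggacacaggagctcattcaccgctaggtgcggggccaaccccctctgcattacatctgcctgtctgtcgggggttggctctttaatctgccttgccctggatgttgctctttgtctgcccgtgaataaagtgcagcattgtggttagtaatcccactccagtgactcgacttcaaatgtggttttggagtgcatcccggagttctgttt

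Tgfb1 held 5 GC boxes in these bases, the nearest 16 bases before the start, and 75.2% of its bases were G or C. Tgfbr1 held 2 GC boxes and 2 CCAAT boxes at 74.8% G or C. Tgfbr2 held 2 CCAAT boxes and no GC box at 58.4%, and Tgfbi held 1 GC box at 62.4%. The first Ltbp1 start, at chr17:75005529, lies just inside the gene edge, and the bases between that edge and the start are not printed. Its 201 printed bases held 2 CCAAT boxes and 1 cyclic AMP response element, 73 bases before position 75005529. The second Ltbp1 start held none of these motifs at 50.8% G or C. Among 32851 RefSeq promoters of the same length, 32.7% held the GC box, 33.8% the CCAAT box and 1.55% the cyclic AMP response element, and the median share of G or C was 52.4%. The Smad-binding motif CAGAC, found in 42.2% of all promoters, occurred at 2 places each in Tgfbi and at the second Ltbp1 start and was absent from the Tgfb1 and Tgfbr1 windows.

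MACS2 had been run on each library, and the libraries differed in the number of peaks they gave, with 145703 and 119974 at P0 and 89610 and 99784 at P8. The lowest local background, which follows depth, came to 1.42, 1.18, 1.02 and 0.979 tags. Within P8, library A had the higher background but fewer peaks. The part of depth in the peak numbers was not tested and cannot be told apart from passage. Peak counts are therefore printed both as they stand and per 100000 peaks of the library. The strength of a peak is its fold enrichment, the pileup of tags at the summit over the local background, with 1 tag added to each. It is therefore not a plain ratio, and how far the added tag shifts it at different depths was not tested. Of 8 chondrocyte markers, 7 had a peak within 1 kb of a gene end in all 4 libraries. The exception was Matn1, which had one in the P0 libraries only. Windows of these 8 markers held 201, 178, 95 and 128 peaks. Of 4 blood markers, Ptprc and Csf1r had no end peak in any library, Cd68 had one in both P0 and no P8 library, and Spi1 had one in all 4. Of 4 endothelial markers, Pecam1 and Cdh5 had none, while Kdr and Tek had one in all 4 libraries. Of 4 fibroblast markers, Col1a1, Col1a2 and Col3a1 had one in all 4 libraries, and Thy1 in all but P8 library B. The share of all coding genes with such a peak was not computed, so these counts do not single out a cell type. The blood windows held 60, 44, 31 and 41 peaks, the endothelial windows 36, 30, 19 and 29, and windows of 4 fibroblast genes 62, 53, 55 and 56. The part of other cell types in the results was not tested.

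The windows of the 10 TGF-beta genes held 249 and 199 peaks in the P0 libraries and 175 and 187 in the P8 libraries. The P0 mean of 224 ± 35.4 (SD, n = 2) was 1.24 times the P8 mean of 181 ± 8.49 (SD, n = 2), and the groups did not overlap. Relative to all peaks of the library the order was the reverse. The windows held 170.9 and 165.9 peaks per 100000 at P0 against 195.3 and 187.4 at P8, a difference of −22.97. This was the full separation of the groups, and an exact two-sided permutation test gave p = 0.333, the smallest value that 2 libraries against 2 allow. The P8 libraries therefore held fewer peaks around these genes, but a larger share of a smaller total. This was not particular to these genes. By gene, the median ratio of P0 to P8 per 100000 peaks was 0.916 over the 10 genes and 0.914 over all coding genes with a peak.

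**Figure D1:**
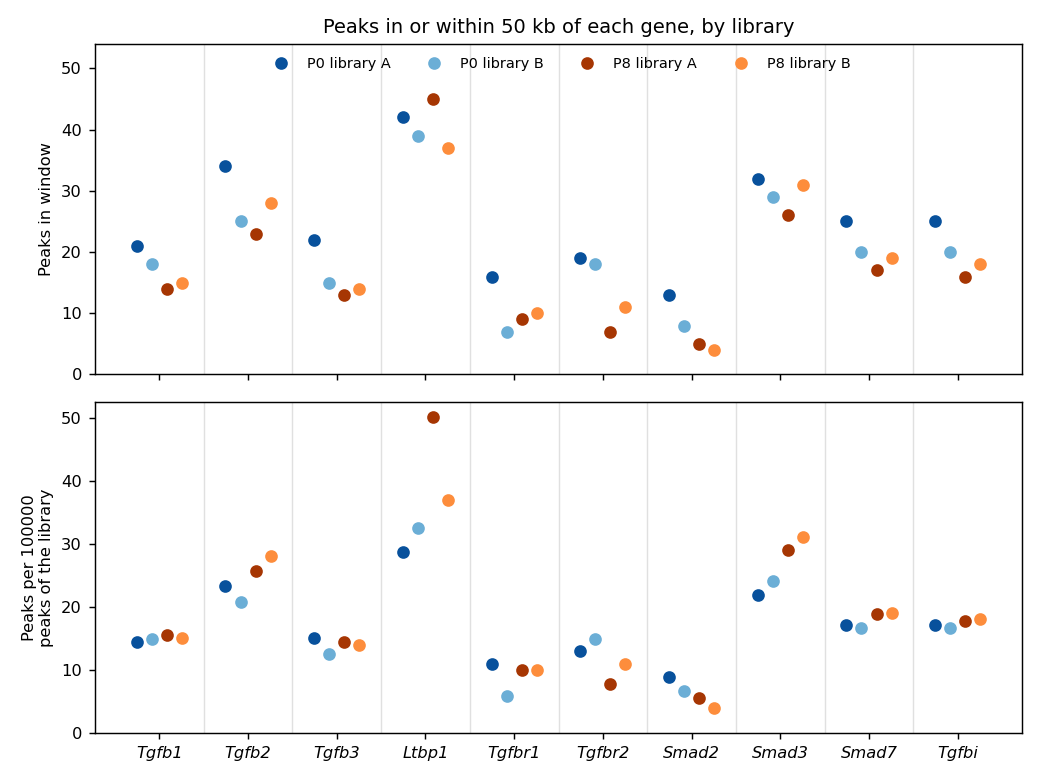
Peaks in or within 50 kb of each gene in the 4 libraries, as counts (top) and per 100000 peaks of the library (bottom), with 1 point per library. Tgfbr2 and Smad2 are the 2 genes whose P0 points lie above both P8 points in both panels.

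By gene, 6 of 10 (Tgfb1, Tgfb3, Tgfbr2, Tgfbi, Smad2 and Smad7) had more peaks in both P0 than in both P8 libraries, and none had more in both P8 libraries. Over all coding genes with a peak, these shares were 48.3% and 3.95%. Per 100000 peaks, 2 of 10 genes (Tgfbr2 and Smad2) lay higher in both P0 libraries, beside 19.6% of all genes, and 6 of 10 (Tgfb1, Tgfb2, Tgfbi, Smad3, Smad7 and Ltbp1) lay higher in both P8 libraries, beside 35.8%. The median ratio of P0 to P8 peaks was 1.29 over the 10 genes and 1.28 over all genes, so that in peak number the 10 genes together lay close to the rest of the genome.

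Of the 293 sites, 109 (37.2%) held a peak in all 4 libraries, beside 32.4% of all sites. Sites with a peak in both P0 and no P8 library, called P0-only, numbered 37 (12.6%), beside 17.0% of all sites. P8-only sites numbered 7 (2.39%), beside 1.84%. A further 93 sites (31.7%) had a peak in a single library, and 52 of these were in P0 library A, the library with the most peaks. P0-only sites were narrow and weak, with a median width of 215 bp and a median mean fold enrichment of 4.69, against 518 bp and 7.01 for sites in all 4 libraries. P8-only sites were alike, at 220 bp and 4.83. Over the whole genome, P0-only sites had medians of 221 bp and 5.02, against 457 bp and 7.54 for shared sites. A merged site spans all its peaks, so sites joined from more libraries can be wider by construction. A class that requires missing calls also favours peaks near the calling limit. How much of the contrast comes from these definitions was not tested. When the 89610 peaks with the lowest p-values were taken from each library, 15 of 214 sites (7.01%) were P0-only and 18 (8.41%) P8-only, beside 11.0% and 5.08% of all sites in that setting. The excess of P0-only over P8-only sites around these genes thus did not remain at equal peak numbers, and 12 of the 37 P0-only sites kept a peak in both P0 libraries there. In another setting, the pileup and local background of each peak were scaled down together to the lowest background of the 4 libraries. Peaks that no longer passed were dropped, which left 284 sites. Of these, 37 (13.0%) were P0-only and 7 (2.46%) P8-only, so the count depended on how the libraries were matched.

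**Figure D2:**
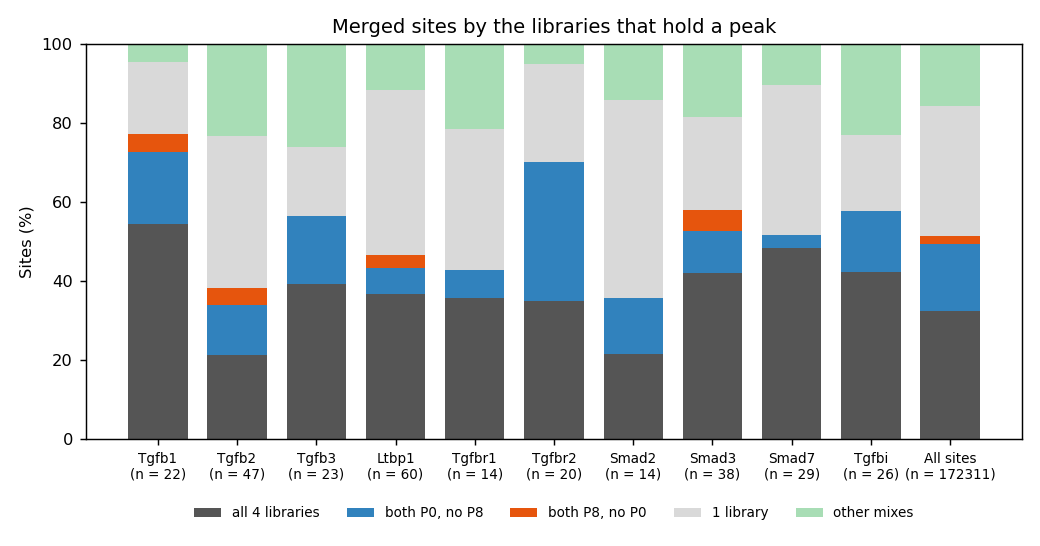
Merged sites of each gene window, and of the whole genome at the right, by the libraries that hold a peak, in percent of the n sites given under each bar. Tgfbr2 shows the highest P0-only share, 7 of 20 sites, and Smad3, Ltbp1, Tgfb2 and Tgfb1 are the genes with P8-only sites.

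At the 109 sites found in all 4 libraries, the median fold enrichment was 7.49, 7.26, 6.36 and 7.09. The median log2 fold enrichment was 2.88 ± 0.03 at P0 and 2.75 ± 0.11 at P8 (SD, n = 2), a difference of 0.13 with no overlap of the groups (exact two-sided permutation test, p = 0.333). Over all 55890 such sites of the genome the difference was 0.27. Fold enrichment was higher in both P0 than in both P8 libraries at 45 of the 109 sites (41.3%), beside 49.9% of all shared sites. It was higher in both P8 libraries at 12 (11.0%), beside 11.6%. As a percentile rank among all peaks of the library, the median was 72.8, 65.9, 64.0 and 69.8, so that the passages overlapped (exact two-sided permutation test, p = 0.667). By rank, 33 sites (30.3%) lay higher in both P0 libraries, beside 39.1% of all shared sites, and 26 (23.9%) lay higher in both P8 libraries, beside 16.4%. A rank depends on how many peaks the library has, and at equal peak numbers the difference of the median rank turned from 2.48 to −7.68.

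**Figure D3:**
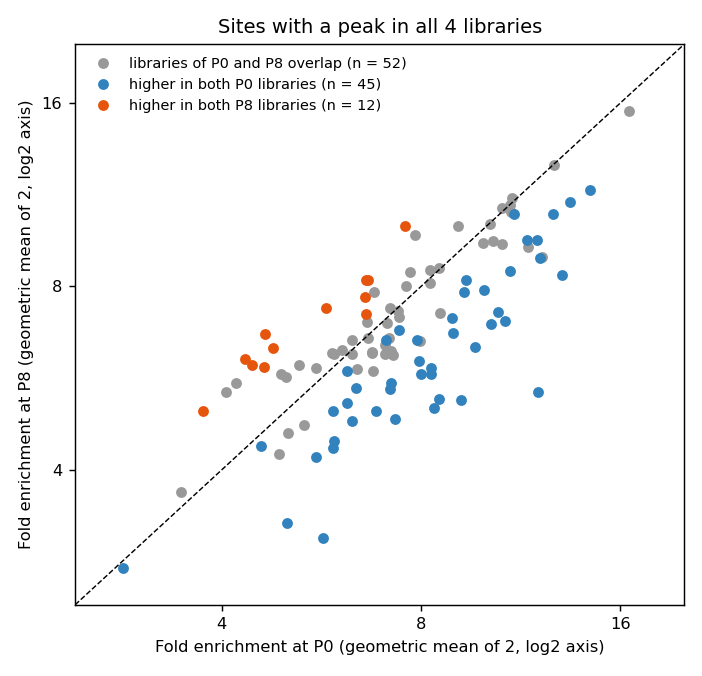
Fold enrichment at P0 against P8 for the 109 sites with a peak in all 4 libraries, each the geometric mean of 2 libraries on log2 axes, with the dashed line marking equality. The 45 blue sites are higher in both P0 libraries, the 12 orange sites are higher in both P8 libraries, and the blue point farthest below the line is the Ltbp1 site 10.5 kb past the second start.

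Tgfb1 encodes the ligand that gave the family its name. The gene (chr7:25687002-25705077, plus strand) lies in a crowded region, and its window holds 6 other coding genes. Its window held 21, 18, 14 and 15 peaks, more in both P0 than in both P8 libraries. Per 100000 peaks the means were 14.7 ± 0.417 at P0 and 15.3 ± 0.418 at P8 (SD, n = 2), and this order turned when sites within 1 kb of other gene ends were left out. The site over its start (chr7:25686660-25687485) covered all 250 bases printed above and had a fold enrichment of 5.89, 5.94, 3.54 and 5.59. Both P0 libraries lay above both P8 libraries, though P8 library B came close to them and P8 library A stood lower. B9d2 ends within 1 kb of it. The strongest site of the window, 5.75 kb upstream and at the ends of Tmem91 and B9d2, reached 12.1, 13.3, 10.9 and 10.2.
Of its 22 sites 12 were in all 4 libraries, and 8 of these were higher in both P0 libraries. The gene body held 3 sites, all of them shared and none specific to a passage. The 4 P0-only sites were outside the gene, and the strongest of them, 41.7 kb upstream and nearest to Bckdha, had values of 4.55 and 6.41. The one P8-only site lay 43.8 kb upstream, also nearest to Bckdha, with values of 5.30 and 8.06.

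Tgfb2 encodes a ligand isoform with broad roles in skeletal and joint development. The gene (chr1:186622787-186709697, minus strand) had 34, 25, 23 and 28 peaks, and the P0 and P8 libraries overlapped. Per 100000 peaks it held 22.1 ± 1.77 at P0 and 26.9 ± 1.69 at P8 (SD, n = 2), an order that turned with a window of 10 kb. The site over its start had a fold enrichment of 5.68, 7.19, 5.73 and 5.97, with both P8 values between the P0 values. The strongest site lay 12.4 kb beyond the gene and reached 11.8, 14.4, 8.79 and 7.94, higher in both P0 libraries. Within the gene the pattern was mixed. The sites 2.72 and 29.5 kb past the start were higher in both P8 libraries, with values of 4.14, 3.39, 5.10 and 4.89 at the nearer one and 4.06, 4.85, 6.05 and 5.85 at the farther one. The site 10.2 kb past the start was higher in both P0 libraries, at 9.17, 10.8, 8.35 and 7.45.
Tgfb2 had 47 sites, and 10 of them were in all 4 libraries. It had 6 P0-only sites, 5 of them inside the gene, and the strongest lay 64.5 kb past the start with values of 7.21 and 5.76. Its 2 P8-only sites lay 25.8 kb upstream, with values of 4.30 and 5.36, and 25.1 kb past the start, with values of 4.52 and 3.90.

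Tgfb3 encodes the remaining ligand isoform, used widely to drive chondrogenesis in culture. The gene (chr12:86056743-86079041) had 22, 15, 13 and 14 peaks. Both P0 counts were above both P8 counts, but by 1 peak for P0 library B, and the libraries overlapped per 100000 peaks. Its start was not given in the promoter table, so both ends of the gene were used. A site at the high end had a fold enrichment of 6.27, 6.97, 7.23 and 7.17, higher in both P8 libraries, while the site 322 bp beyond it overlapped between the passages at 6.51, 7.64, 6.22 and 6.62. At the low end no peak was found within 1 kb. The strongest site of the window, 49.9 kb from the gene and nearest to Ift43, reached 13.9, 13.0, 10.3 and 11.7. This merged site ran past the window edge, and its P0 library B peak lay outside the window. Inside the window the highest peak of that library had 10.1. A site 25.2 kb beyond the high end was higher in both P0 libraries, at 9.41, 7.69, 4.52 and 6.04, a log2 difference of 0.70. None of its 4 P0-only sites lay in the gene, and no site was P8-only.

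**Figure D4:**
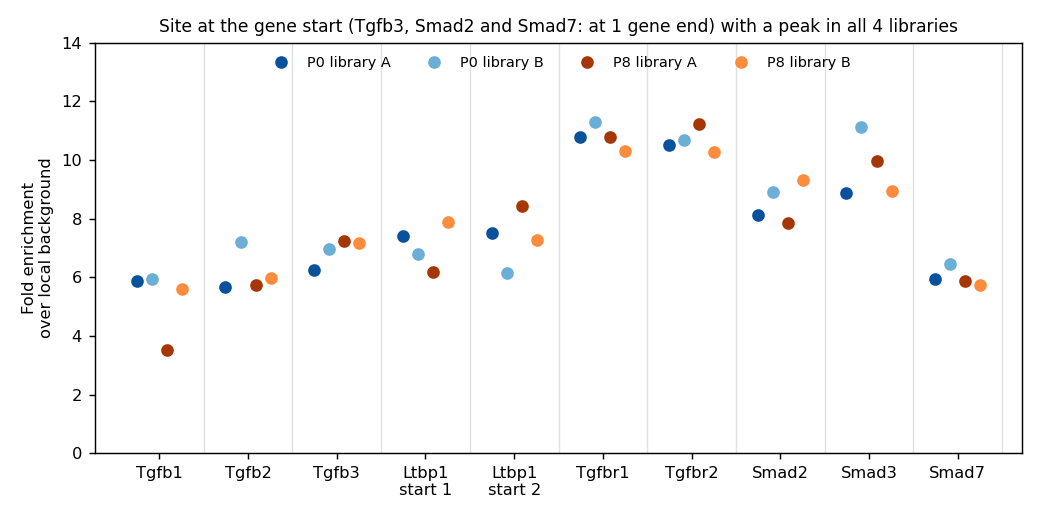
Fold enrichment in each library of the site at the gene start that holds a peak in all 4 libraries, with 1 point per library. For Tgfb3, Smad2 and Smad7 the site at 1 gene end is shown, Tgfbi has no such site, and the receptors Tgfbr1 and Tgfbr2 stand at 10.3 to 11.3 in all 4 libraries.

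Ltbp1 encodes a latent TGF-beta binding protein, which anchors the latent ligand in the matrix. It was the longest of the genes (chr17:75005480-75392512, plus strand, 2 annotated starts) and had the most sites, 60, of which 48 lay inside the gene and 22 were in all 4 libraries. Its window held 42, 39, 45 and 37 peaks, which overlapped between the passages. Per 100000 peaks the values were 28.8, 32.5, 50.2 and 37.1, higher in both P8 libraries and highest in P8 library A. The site at the first start had a fold enrichment of 7.40, 6.81, 6.17 and 7.87, and the site at the second 7.52, 6.15, 8.43 and 7.26. Neither separated the passages.
The site 10.5 kb past the second start (chr17:75189292-75189809) had a fold enrichment of 11.5, 12.6, 5.71 and 5.05. This was a log2 difference of 1.16, the largest toward P0 of the 109 shared sites, and both P0 values were far above both P8 values. Of the 20 shared sites inside the gene, 7 including this one were higher in both P0 libraries and 4 in both P8 libraries. One of the latter, 43.9 kb past the first start, had values of 7.45, 5.95, 8.41 and 8.00. The strongest site of the window, 83.7 kb before the second start, gave 11.9, 10.1, 9.13 and 12.3 and did not separate the passages. All 4 P0-only sites were inside the gene, the strongest 56.6 kb past the second start at 9.11 and 4.58. Of the 2 P8-only sites, one lay 28.2 kb before the first start at 5.93 and 6.06 and the other 199.7 kb past the second start at 4.82 and 5.01.

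**Figure D5:**
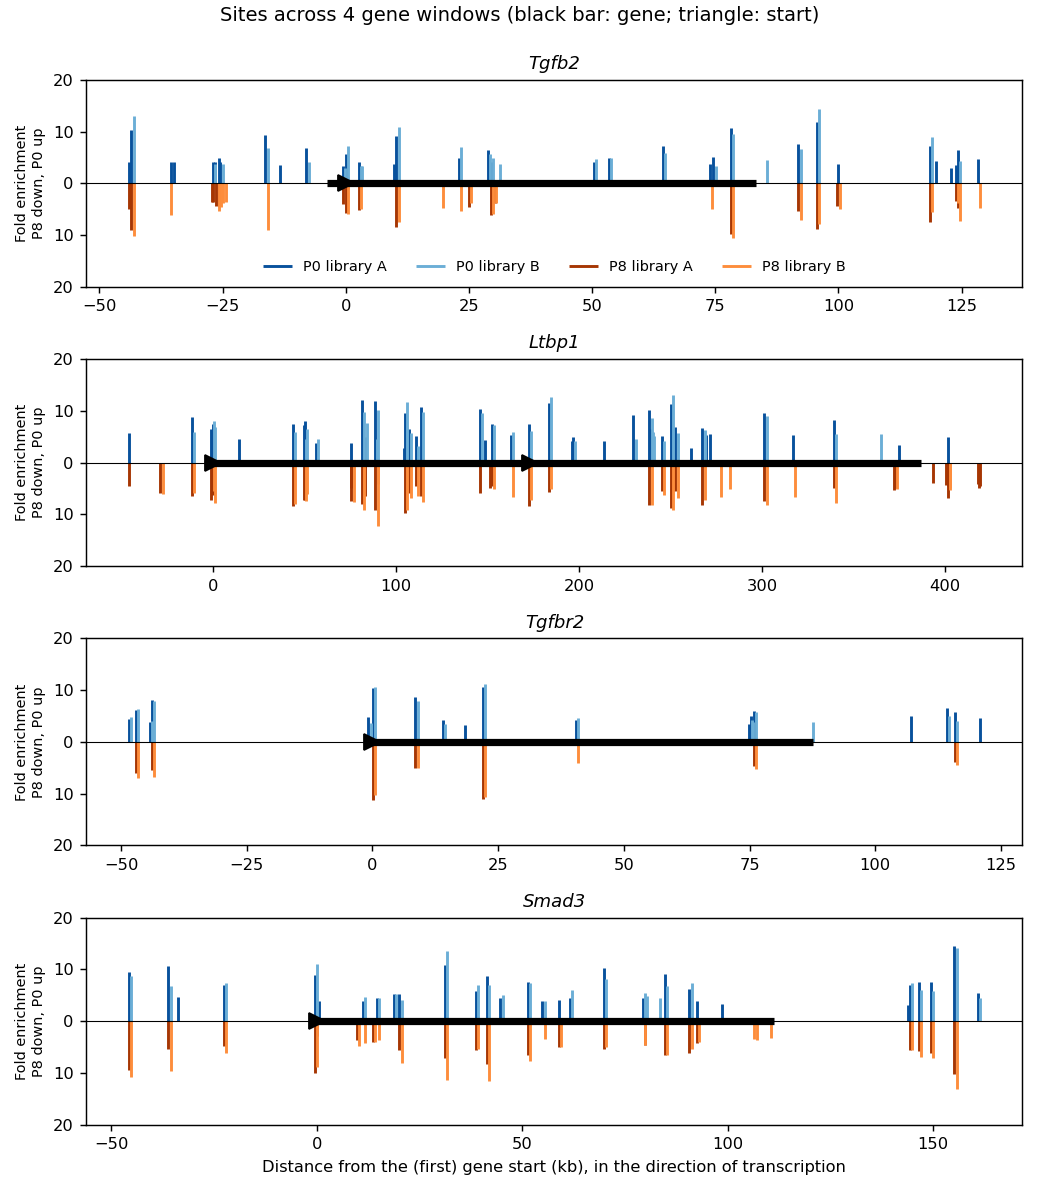
Fold enrichment of every site in the windows of Tgfb2, Ltbp1, Tgfbr2 and Smad3 against the distance of the site's centre from the first gene start in kb, with P0 libraries drawn upward and P8 libraries downward and the A and B lines set slightly apart. The tall P0 lines with short P8 lines just past the second Ltbp1 start are the site with 11.5 and 12.6 at P0, and Tgfbr2 shows pairs of P0 lines with no P8 partner at 7 sites.

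Tgfbr1 encodes the type I receptor kinase, which phosphorylates Smad2 and Smad3. The gene (chr4:47353222-47414926, plus strand, 2 annotated starts) had 16, 7, 9 and 10 peaks, with the P8 values between the P0 values. The site over its first start, which covered the printed bases, had a fold enrichment of 10.8, 11.3, 10.8 and 10.3. Both P0 values lay above both P8 values, P0 library A only just above P8 library A, and by rank the order was the reverse. No peak was found within 1 kb of the second start. The strongest site of all 10 windows lay inside this gene, 20.9 kb past the second start, at 15.2, 17.9, 15.8 and 15.2. Its 1 P0-only site lay 34.5 kb upstream, nearest to Col15a1, at 7.45 and 7.78, and no site was P8-only.

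Tgfbr2 encodes the type II receptor kinase, which binds the ligand first. The gene (chr9:116087695-116175363, minus strand) had 19, 18, 7 and 11 peaks, with a P0 mean of 18.5 ± 0.707 and a P8 mean of 9.0 ± 2.83 (SD, n = 2). The P0 values also lay above the P8 values per 100000 peaks, at 13.0, 15.0, 7.81 and 11.0, and at equal peak numbers, at 11, 10, 7 and 9. It was the only one of the 10 genes with more P0 peaks in that last setting, while Tgfb2, Tgfb3, Smad3 and Ltbp1 had more in both P8 libraries. The share of all coding genes with either order was not computed in that setting. Its start site did not separate the passages. The site over the start (chr9:116174366-116175622), which covered the printed bases, had a fold enrichment of 10.5, 10.7, 11.2 and 10.3. The strongest site, 21.9 kb past the start in the gene, was as even at 10.6, 11.2, 11.0 and 10.7. A site 8.39 kb past the start was higher in both P0 libraries, at 8.76, 7.99, 5.13 and 4.97, a log2 difference of 0.73.
Of its 20 sites, 7 were P0-only and none P8-only. The P0-only sites were spread over the window, 3 inside the gene and 4 outside it. One of the latter lay 468 bp upstream of the start with values of 4.90 and 3.72, while the strongest lay 26.7 kb beyond the gene, nearest to Gadl1, with values of 6.62 and 5.03. At equal peak numbers 3 of 11 sites were P0-only.

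Smad2 encodes a receptor-activated transducer. The gene (chromosome 18, 70.7 kb long) had 13, 8, 5 and 4 peaks, the fewest of the 10 genes except in P0 library B, and a P0 mean of 10.5 ± 3.54 against a P8 mean of 4.5 ± 0.707 (SD, n = 2). Per 100000 peaks it held 8.92, 6.67, 5.58 and 4.01, still higher in both P0 libraries. At equal peak numbers the counts were 5, 5, 5 and 3, and the passages overlapped. The site at its low end, the strongest of the window and the 1 shared site in the gene, had a fold enrichment of 8.13, 8.92, 7.87 and 9.32. Its 2 P0-only sites lay 4.24 kb from the gene, with values of 3.73 and 6.41, and 43.4 kb from it, with values of 4.42 and 4.08.

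Smad3, which encodes the other receptor-activated transducer and binds DNA directly, had a denser and more even window. The gene (chr9:63646766-63757994, minus strand) had 32, 29, 26 and 31 peaks, which overlapped between the passages. Per 100000 peaks the values were 22.0, 24.2, 29.0 and 31.1, higher in both P8 libraries, and at equal peak numbers the counts were 21, 24, 26 and 26 in the same order. The site over its start had a fold enrichment of 8.88, 11.1, 9.97 and 8.93 and did not separate the passages. The strongest site, 43.9 kb beyond the gene and at the ends of Iqch and Aagab, reached 14.6, 14.2, 10.1 and 13.1.
Inside the gene both orders were found. The site 69.9 kb past the start was higher at P0, at 10.2, 8.24, 5.36 and 5.05, a log2 difference of 0.82. The site 20.2 kb past the start was higher at P8, at 5.17, 4.16, 5.59 and 7.99, which at −0.53 was the largest difference toward P8 of the 109 shared sites. Its 2 P8-only sites lay close by, 10.0 kb past the start with values of 3.55 and 4.80 and 13.9 kb past it with values of 4.08 and 4.08. Of its 4 P0-only sites the strongest lay 18.8 kb past the start with values of 5.22 and 5.28, so that P0-only and P8-only sites lay within 10 kb of each other.

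Smad7 encodes the inhibitory Smad, itself induced by the pathway. The gene (chromosome 18, 28.6 kb long) had 25, 20, 17 and 19 peaks, more in both P0 libraries, but per 100000 peaks 17.2, 16.7, 19.0 and 19.0, more in both P8 libraries. Of its 29 sites 14 were in all 4 libraries, 1 was P0-only and none P8-only. The site at the low end had a fold enrichment of 5.93, 6.45, 5.89 and 5.75, and the site 400 bp beyond that end 5.43, 6.41, 6.89 and 5.55. The strongest site, 23.9 kb outside the gene, was even at 8.54, 7.96, 8.30 and 8.70. A pattern seen only after the values were known was that all 6 shared sites inside the gene were higher in both P0 libraries, by fold enrichment and by rank. Over all shared sites of the genome, the shares higher in both P0 libraries were 49.9% by fold enrichment and 39.1% by rank. The log2 differences of the 6 sites ran from 0.09 to 0.88, with a median of 0.39, while the 8 shared sites outside had a median of −0.06. The largest lay at 5.50, 5.90, 3.23 and 2.97. The P0-only site, 34.9 kb from the gene, had values of 8.28 and 4.58.

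Tgfbi encodes an extracellular matrix protein named for its induction by TGF-beta. The gene (chr13:56609586-56639359, plus strand) had 25, 20, 16 and 18 peaks, more in both P0 libraries. Per 100000 peaks it held 16.9 ± 0.345 at P0 and 17.9 ± 0.130 at P8 (SD, n = 2), an order that turned with a window of 10 kb. It was the 1 gene, of the 7 whose starts were given, without a shared site at a start. A 130 bp site there held weak peaks of 2.86 in P0 library A and 3.49 and 3.45 in the P8 libraries, and none was called in P0 library B. It covered 77 of the 250 bases printed above. The nearest shared site, 1.95 kb upstream, was higher in both P8 libraries at 4.92, 4.63, 6.71 and 5.98. Inside the gene the 1 shared site, 25.1 kb past the start, was higher in both P0 libraries at 11.1, 10.4, 5.78 and 8.54. The strongest site, 25.0 kb beyond the gene, was even, at 12.6, 12.8, 12.6 and 12.7. Of its 4 P0-only sites the strongest lay 39.2 kb upstream, nearest to Lect2, at 7.15 and 7.32, and no site was P8-only.

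Sites were also grouped by whether they lay within 1 kb of an end of any coding gene, as a description with no test. Of the 38 sites near an end, 24 (63.2%) were in all 4 libraries, 3 were P0-only and none was P8-only. Of the 255 sites farther away, 85 (33.3%) were shared, 34 were P0-only and 7 P8-only. Over the whole genome, 56.6% of the sites near an end were shared, 10.1% were P0-only and 0.550% P8-only, and of those farther away 28.5%, 18.2% and 2.06%. Of the 293 sites 136 (46.4%) lay inside the member gene, and for 201 (68.6%) the member was the nearest coding gene. P0-only sites lay inside the gene in 16 of 37 cases and shared sites in 52 of 109.

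A list of 30 other genes of the pathway was described by the same counts. Of their 746 sites 285 (38.2%) were in all 4 libraries, 112 (15.0%) were P0-only and 9 (1.21%) P8-only, beside 32.4%, 17.0% and 1.84% of all sites. A peak within 1 kb of a gene end was found in all 4 libraries for 25 of the 30. The share of all coding genes with such a peak was not computed, so this count has no value to be set against. More peaks in both P0 libraries were found at 13 of 30 and more in both P8 libraries at none, beside 48.3% and 3.95% of all genes. Per 100000 peaks 2 (Ltbp2 and Tgfbr3) were higher in both P0 and 11 in both P8 libraries, beside 19.6% and 35.8%. Tgfbr3 is the betaglycan co-receptor that presents ligand to the type II receptor, and Fbn1 the microfibril protein to which latent complexes attach. They had the most P0-only sites, 12 of 53 and 12 of 50, beside 17.0% of all sites, and no P8-only site. They also had the most sites of the list. Tgfbr3 had 45, 38, 27 and 30 peaks and Fbn1 46, 37, 21 and 33.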

How the data were processed

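ATAC-seq libraries of mouse chondrocytes at passage 0 and passage 8, 2 each, were analysed from deposited MACS2 peak tables. Per the labels, 50 bp paired-end reads had been aligned with Bowtie2, and the submitters' processing notes name MACS2, ChIPseeker, DiffBind and HOMER, with mm10 as the build. The pileup that the authors deposited is a signal, the tags at a peak's summit without scaling for depth. The deposited fold enrichment was read as its ratio to the local background, with a tag added to both. The authors also deposited the −log10 p-value and −log10 q-value. The headers of the last columns are damaged, and they were told apart by the MACS2 column order. The smallest −log10 q-value was 1.30. A further table holds the authors' own DiffBind comparison, with fold changes, p-values and FDR per site, and was not used. No column of values per library was left unused (0 columns).

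Peaks overlapping by at least 1 bp were merged into sites, and a site with several peaks of a library took the highest. Genes came from the RefSeq table of GRCm38.p6. It gives no strand, so starts were taken from the RefSeq promoter table, which matched 7 of the 10 genes. For the others both gene ends were used. An exact two-sided permutation test over 2 against 2 libraries was applied to each value per library. These p-values measure only the spread between these libraries. Sequencing totals were not used, and depth was read only indirectly, from peak numbers and the lowest local background. These did not rank the P8 libraries alike.

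All 10 genes are named, each with its start site, its strongest site and up to 3 P0-only and 3 P8-only sites. The sites with the largest differences, and those near starts, were chosen after their values were seen. Of the pathway list up to 5 genes with the most P0-only or P8-only sites are named, and 1 such result is not reported here. The members and lists were chosen with earlier results of these data known. Other windows, thresholds, scales and left-out libraries were tried. Merging, windows and site classes were tested on simulated data. The scripts ran under Python 3.11.15 with pandas 2.3.3, numpy 2.4.6, matplotlib 3.10.9 and scipy 1.17.1.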

Additional observations from a re-analysis of the deposited data

How the results depend on the processing

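No paired analysis was possible because the peak names carry no replicate number. Of 205 alternative values, 148 kept the direction of a tested difference or lay within the spread between replicates, the counting interval of a share or 1.5 times of a count, 52 moved by more and 5 reversed. The median rank of shared sites turned from higher at P0 to higher at P8 (−7.68) when each library kept an equal number of peaks (exact permutation p = 0.333). Peaks per 100000 turned to higher at P0 for Tgfb1 without sites at other gene ends (0.553, an alternative added after seeing the data), for Tgfb2 in windows of 10 kb (1.24) and of the gene and 2 kb (0.438), and for Tgfbi in windows of 10 kb (0.310). Within the spread between replicates, Tgfbr1 also turned at a −log10 q of at least 5 (0.893) and without P0 library B (0.949), and Tgfb3 without P0 library B (0.830). The genes with more peaks in both P0 libraries numbered 3 with windows of 10 kb, with the gene and 2 kb, and with nearest genes only, and 1 at equal peak numbers. P0-only sites were 9.28% at a −log10 q of at least 5 and 7.01% at equal peak numbers, where P8-only sites were 8.41%. Joining peaks only at an overlap of 50% of the shorter one gave 13 P8-only sites (3.80%) in place of 7. By pileup, which is not scaled for depth, P0-higher sites were 62.4% and P8-higher sites 0, and by rank 30.3% and 23.9%. Leaving out 1 library in turn eases each class by construction, since fewer libraries must hold a peak: P0-only sites ranged from 14.8% to 32.4%, with 22.2% without P0 library A and 32.4% without P0 library B. P8-only sites ranged from 2.49% to 7.78%, with 7.78% without P0 library A, 7.39% without P8 library A and 7.77% without P8 library B. P0-higher sites ranged from 48.0% to 57.4%. P8-higher sites ranged from 14.8% to 27.2%, with 23.2% without P0 library A, 26.2% without P0 library B and 27.2% without P8 library A. The difference in peaks per 100000 then ranged from −26.9 to −19.0, that in log2 fold enrichment from 0.0959 to 0.245, that in rank from 0.558 to 6.68, and the genes with more P0 peaks from 6 to 9. The cause of these changes was not tested except where given. With 2 libraries a group, the exact permutation test used here cannot give a p below 0.333.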
